A study of Mus musculus with 7 samples.

Results

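The 10 genes described here are transcription factors and markers of the epithelial-mesenchymal transition, namely Vim, Zeb1, Zeb2, Snai1, Snai2, Twist1, Cdh2, S100a4, Tgfbi and Acta2. They were picked by gene symbol, with the version of the gene identifier dropped, and all 10 were found among the 55487 entries of the expression table. The values are TPM, which are corrected for transcript length and scaled to the same total of 1000000 in each library. A gene was tested if 3 or more of the 7 libraries gave it 1 TPM or more, which 7 of the 10 did. Zeb1, Snai2 and Cdh2 lay under 1 TPM in every library and are given as values only.

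The libraries come from primary tumours of BALB/c mice, labelled WT and day 12, grown in the mammary fat pad from 4T1-12b(luc) cells. These are luciferase-carrying derivatives of 4T1, a mouse mammary carcinoma line, so every group, controls included, carries the same stably transfected line. From a size of about 150 mm3 the tumours received 6 injections of 50 µl, given on alternate days. There were 3 libraries from tumours given saline, 1 from a tumour given small extracellular vesicles (sEV) that 4T1 cells had released after DMSO (Cont sEV) and 3 from tumours given those of 4T1 cells made senescent by nocodazole (TIS sEV, for therapy-induced senescence). The vesicle donors were exposed to DMSO or to 100 ng/ml nocodazole for 72 h and collected after a further 72 h of release. The labels do not say that replicates are separate animals, so p-values measure only the spread between these libraries, which may be technical. Which table columns hold the vesicle groups was read from abbreviations that the labels do not spell out, and each vesicle comparison rests on that reading. The series asks what vesicles of senescent tumour cells do to growing tumours. The tumours are bulk tissue of carcinoma and host cells, in which fewer cells of a type and less RNA per cell cannot be told apart. Keratin 8 (Krt8) at 218 to 1716 TPM and Epcam at 18.6 to 158 TPM, markers of the labelled carcinoma, were present in all 7 libraries.

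In the epithelial-mesenchymal transition, epithelial cells loosen their junctions and take on features of motile mesenchymal cells. Snail, Twist and Zeb proteins are the transcription factors best known for it. Snail and Zeb proteins bind E-box sequences in epithelial genes such as Cdh1, which encodes E-cadherin, and repress them, and transforming growth factor beta (TGF-beta) is a well-known inducer. Several of the markers are not specific to carcinoma cells, since Vim, S100a4 and Zeb2 are also made by leukocytes and fibroblasts, and Acta2 by smooth muscle cells, pericytes and activated fibroblasts.

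The RefSeq promoter table (GRCm38.p6) held 7 of the 10 genes, without Zeb1, Snai2 and Cdh2. The promoters of 3 genes are shown as the 250 bases before the annotated start, on the + strand, which carries all 3 genes: that of Snai1, the tested factor with the lowest difference between TIS sEV and saline, that of Twist1, a factor of similar level, and that of S100a4, the most abundant of the 10. Capitals mark CAGGTG, the E-box form bound by Snail and Zeb proteins (CACCTG on the other strand), and the core of the TATA box, TATAAA. The windows are chr2:167537945-167538194 for Snai1, chr12:33957421-33957670 for Twist1 and chr3:90603520-90603769 for S100a4.
Snai1 promoter: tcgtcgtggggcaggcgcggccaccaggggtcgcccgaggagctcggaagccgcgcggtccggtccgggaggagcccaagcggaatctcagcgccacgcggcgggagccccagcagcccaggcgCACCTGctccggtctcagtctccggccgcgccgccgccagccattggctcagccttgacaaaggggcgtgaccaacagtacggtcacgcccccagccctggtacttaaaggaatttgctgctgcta
Twist1 promoter: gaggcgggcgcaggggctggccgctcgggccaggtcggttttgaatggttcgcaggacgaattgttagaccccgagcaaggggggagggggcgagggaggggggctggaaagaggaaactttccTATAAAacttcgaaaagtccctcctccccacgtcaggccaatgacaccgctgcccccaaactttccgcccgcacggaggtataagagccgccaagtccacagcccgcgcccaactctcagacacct
S100a4 promoter: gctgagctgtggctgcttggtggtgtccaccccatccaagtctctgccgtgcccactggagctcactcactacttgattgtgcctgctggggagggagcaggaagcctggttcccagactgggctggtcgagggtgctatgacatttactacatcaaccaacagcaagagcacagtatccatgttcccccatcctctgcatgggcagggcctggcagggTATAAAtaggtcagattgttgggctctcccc
The Snai1 window held 1 CAGGTG match, read as CACCTG from 126 to 121 bases before the start. No other window of the 7 genes held one, and 17.2% of all 32851 promoter windows in the table do. The TATAAA motif was found from 31 to 26 bases before the start in S100a4, from 32 to 27 bases in Vim and from 126 to 121 bases in Twist1, against 12.4% of all windows. The general E-box CANNTG, which includes CAGGTG, had 3 matches in Acta2 and 1 in Snai1, against 66.2% of all windows with any. TGANTCA, the AP-1 form, had 2 matches in 1 of the 4 Zeb2 windows (6.75% of all windows hold it). The CArG box was searched only in its strict form, CCWWWWWWGG with W for A or T. That form had no match in the 7 genes (1.47% of all windows hold it). Forms that differ from it in a base were not searched, so a CArG element of such a form may lie in the Acta2 window. All motifs were searched on both strands, and a match is a description of letters only.

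The library of TIS sEV replicate 2 stood apart. Its share of nuclear ribosomal RNA was 22.9% of all TPM, while the other 6 had 0.807% to 2.40%, and its share of nuclear protein-coding genes was 28.6%, while the others had 56.8% to 74.7%. Depth is unknown because TPM keeps none. The fitted log2 difference of the median tested gene was -0.62 for TIS sEV against saline, -0.29 for TIS sEV against Cont sEV and -0.33 for Cont sEV against saline. Differences relative to the median gene are printed beside or in place of the fitted ones for this reason. Levels are also given as TPM divided by a size factor, a scaling per library that brings the 3 medians to -0.037, -0.041 and 0.0030. Size factors ran from 0.373 in TIS sEV replicate 2 to 1.51 in saline replicate 2.

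The 10 genes covered about 5 orders of magnitude on the TPM scale. S100a4 had the highest mean over the 7 libraries, 5786 TPM, followed by Vim at 2380 and Tgfbi at 46.8 TPM. Snai1 (14.8), Twist1 (14.5) and Acta2 (13.1 TPM) came next and could not be ordered, since their ranges over the libraries overlapped. Zeb2, at 4.64 TPM, overlapped all 3 in range, and was above Snai1 in TIS sEV replicate 2 and above Acta2 in saline replicate 2. Zeb1 was at 0.613, Snai2 at 0.242 and Cdh2 at 0.0771 TPM. S100a4 and Vim overlapped in range, but S100a4 was above Vim within each library, by 1.38 to 5.44 times. Tgfbi overlapped with Snai1, Twist1 and Acta2 in range but was above all 3 within each library. Among the last 3 genes neighbours overlapped. Snai2 was above Zeb1 in the Cont sEV library, and Cdh2 was above Snai2 in TIS sEV replicate 2.

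**Figure D1:**
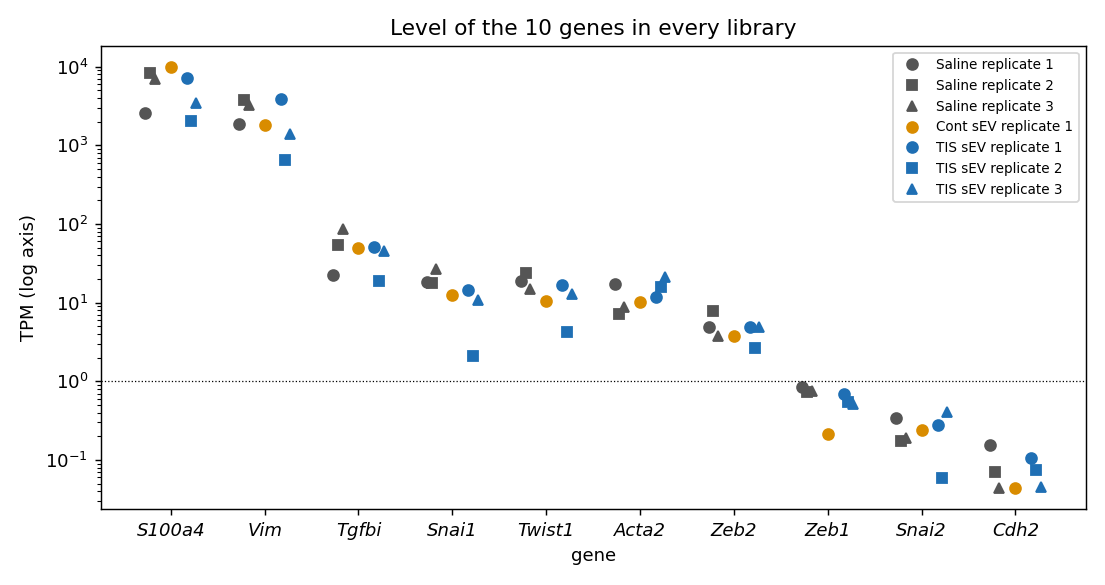
TPM of the 10 genes (x axis, ordered by mean) on a log axis (y axis), with 1 point per library, colour for group and shape for replicate; the dotted line marks 1 TPM. S100a4 and Vim lie at 651 TPM or more everywhere, Zeb1, Snai2 and Cdh2 lie under the line in all 7 libraries, and TIS sEV replicate 2 (blue square) is the lowest point of 7 genes.

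Among the Snail factors, Snai1 (chromosome 2, 167538195 to 167542814, GRCm38) was the form expressed. Snai1 was at 18.2, 17.8 and 27.1 TPM with saline, at 12.6 TPM with Cont sEV and at 14.6, 2.10 and 10.8 TPM with TIS sEV. All 3 TIS sEV libraries were below all 3 saline libraries, and the Cont sEV library lay between those of TIS sEV replicates 1 and 3. Per size factor the saline libraries were at 17.8, 11.7 and 18.3 and the TIS sEV libraries at 11.6, 5.62 and 10.7, so the groups stayed apart but nearly met. Snai2 (Slug; chromosome 16, 14705852 to 14709385), the related factor, was at 0.344, 0.176 and 0.188 TPM with saline, at 0.242 TPM with Cont sEV and 0.276, 0.0587 and 0.409 TPM with TIS sEV, and the groups overlapped.

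Twist1 (chromosome 12, 33957671 to 33959829), a basic helix-loop-helix factor, was at 18.9, 23.5 and 14.9 TPM with saline, at 10.5 TPM with Cont sEV and at 16.7, 4.29 and 12.8 TPM with TIS sEV. The saline and TIS sEV ranges overlapped, and the low value was again that of TIS sEV replicate 2. Per size factor the 3 TIS sEV libraries lay close together, at 13.3, 11.5 and 12.7, inside the saline span of 10.1 to 18.4. Twist1 was the tested gene with the smallest fold between its highest and lowest library on that scale, 1.83-fold, and its fold on the TPM scale was 5.49. The ratio of Snai1 to Twist1, which no scaling touches, was 0.489 to 0.875 in the TIS sEV libraries, 0.756 to 1.82 in the saline libraries and 1.20 with Cont sEV.

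The Zeb genes encode zinc-finger homeobox repressors. Zeb2 (chromosome 2, 44983632 to 45117395) was at 4.85, 7.77 and 3.76 TPM with saline, at 3.74 TPM with Cont sEV and at 4.84, 2.67 and 4.85 TPM with TIS sEV, with overlapping groups. Per size factor its highest library was TIS sEV replicate 2, at 7.15. Zeb2 shares its span with the antisense gene Zeb2os, and the sources do not state whether quantification used strand, so reads of both could be mixed. Zeb1 (chromosome 18, 5591860 to 5775467) was at 0.858, 0.728 and 0.744 TPM with saline, at 0.215 TPM with Cont sEV and at 0.684, 0.548 and 0.512 TPM with TIS sEV. These Zeb1 groups did not overlap in TPM, but per size factor TIS sEV replicate 2 became the highest of all, at 1.47. With no depth known, the counting error of such low values cannot be given.

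Vim (vimentin; chromosome 2, 13573927 to 13582826), the intermediate filament of mesenchymal cells, was among the most abundant transcripts of every tumour, at rank 35 to 127 of 12058 tested genes. It was at 1888, 3787 and 3228 TPM with saline, at 1824 TPM with Cont sEV and at 3893, 651 and 1391 TPM with TIS sEV. The highest and the lowest Vim value both came from the TIS sEV group, which spanned 5.98-fold, against 2.01-fold with saline. Per size factor the TIS sEV libraries were at 3091, 1744 and 1379 and the saline libraries at 1842, 2501 and 2182. The ratio of Vim to Krt8, a keratin of epithelial cells, ran from 1.20 to 5.29 within the TIS sEV group. It thereby enclosed the saline ratios of 1.91 to 3.16, with 1.65 for Cont sEV. The ratio of Vim to Cdh1 was 89.1, 65.6 and 38.3 with saline, 60.5 with Cont sEV and 68.9, 239 and 79.1 with TIS sEV. These saline and TIS sEV ranges overlapped, but that of TIS sEV did not enclose that of saline.

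S100a4 (chromosome 3, 90603771 to 90606045) encodes a small calcium-binding protein linked to cell motility, also called fibroblast-specific protein. S100a4 was at 2608 TPM in saline replicate 1, at 8328 and 7000 TPM in the other saline libraries, at 9925 TPM with Cont sEV and at 7160, 2041 and 3437 TPM with TIS sEV. The Cont sEV library was the highest of the 7, and the saline and TIS sEV ranges overlapped. Per size factor the Cont sEV library was at 9952, against 2546 to 5500 with saline and 3407 to 5684 with TIS sEV. S100a4 ranked 13th among the tested genes with Cont sEV and from 16th to 60th elsewhere.

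Tgfbi (chromosome 13, 56609523 to 56639562), a secreted matrix protein induced by TGF-beta, was at 22.3, 54.8 and 85.3 TPM with saline, at 49.2 TPM with Cont sEV and at 51.3, 19.0 and 45.9 TPM with TIS sEV. Per size factor the saline libraries of Tgfbi spanned 21.8 to 57.7 and enclosed the TIS sEV libraries, at 40.8 to 50.9. Cdh2 (N-cadherin; chromosome 18, 16588877 to 16809246), the cadherin that replaces E-cadherin in the classical cadherin switch, had the lowest level of the 10. It was at 0.155, 0.0703 and 0.0442 TPM with saline, at 0.0438 TPM with Cont sEV and at 0.107, 0.0750 and 0.0448 TPM with TIS sEV. Cdh1 exceeded Cdh2 in every library, by 36.3 times in TIS sEV replicate 2 and by 137 to 1906 times in the other 6.

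Acta2 (alpha smooth muscle actin; chromosome 19, 34241090 to 34255590), a contractile filament protein, followed another pattern. It was at 17.3, 7.26 and 8.71 TPM with saline, at 10.3 TPM with Cont sEV and at 11.7, 15.6 and 20.9 TPM with TIS sEV. Saline replicate 1 lay between TIS sEV replicates 2 and 3, so the groups overlapped. Per size factor TIS sEV replicate 2 was the highest, at 41.8, and saline replicate 2 the lowest, at 4.80. Reads of Acta2 can be shared with other actin genes of near-identical coding sequence, so its values are uncertain.

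Tagln, an actin-binding protein of contractile cells, was at 48.7, 14.7 and 16.4 TPM with saline, 33.7 TPM with Cont sEV and 30.7, 38.3 and 50.4 TPM with TIS sEV. Saline replicate 1 and TIS sEV replicate 3 were thus the highest libraries for both Acta2 and Tagln, and the ratio of Tagln to Acta2 stayed between 1.88 and 3.26. The defining smooth muscle genes Myh11 (0.0541 to 0.172 TPM) and Cnn1 (0.217 to 0.858 TPM) were under 1 TPM in all 7 libraries. The 10 smooth muscle and pericyte markers summed to 86.8 to 104 TPM with saline and 51.2 to 97.1 TPM with TIS sEV. With Cont sEV they summed to 89.7 TPM. In each library 3 to 6 of the 10 were at 1 TPM or more. Per size factor the groups overlapped. The highest sum was that of TIS sEV replicate 2, at 137, and the lowest that of saline replicate 2, at 57.3. Between TIS sEV and saline, 4 of the 5 tested markers lay above the median gene and 1 below it (list median 0.70, none passed). Tagln was at 1.365 and Actg2 at 0.96, beside 1.17 for Acta2. Without TIS sEV replicate 2 the list median was 0.54, with 3 of 5 above the median gene. The 10 fibroblast markers, among them Pdgfra and Dcn, summed to 111 to 216 TPM with saline, 161 TPM with Cont sEV and 40.9 to 295 TPM with TIS sEV. Of that list, Thy1 was at 64.0 ± 13.4 TPM (SD, n = 3) with saline and 102 ± 69.4 TPM with TIS sEV, while Pdgfra (6.61 ± 2.00 and 3.63 ± 3.25), Dcn (13.9 ± 10.5 and 8.63 ± 6.13) and Col1a2 (15.8 ± 6.58 and 10.9 ± 6.73 TPM) had lower means with TIS sEV, and the groups of all 4 overlapped. Relative to the median gene, Thy1 was at 0.90, Dcn at 0.27, Col1a2 at -0.0099 and Pdgfra at -0.46. Of the 7 tested fibroblast markers 4 lay above the median gene and 3 below it (list median 0.27). Per size factor the fibroblast sums were 75.1 to 210 with saline and 110 to 235 with TIS sEV. No marker of either list was at 0 in any library. The part of such cells in the Acta2 values was not tested.

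**Figure D2:**
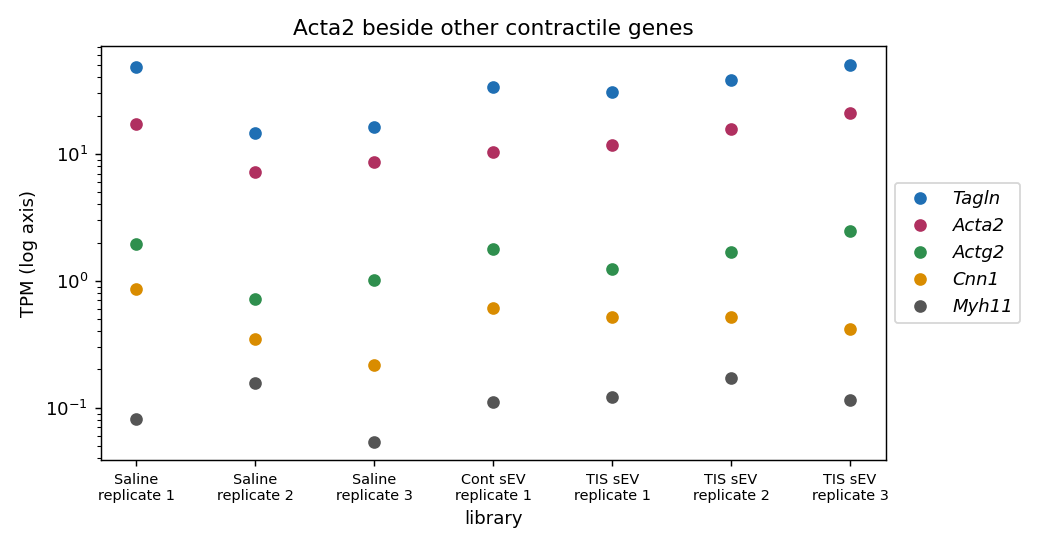
TPM (y axis, log) of Acta2 and of the contractile genes Tagln, Actg2, Cnn1 and Myh11 in the 7 libraries (x axis), 1 point per gene and library. Acta2 and Tagln are both lowest in saline replicates 2 and 3 and highest in saline replicate 1 and TIS sEV replicate 3, while Cnn1 and Myh11 stay under 1 TPM.

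None of the 7 tested genes passed an adjusted p under 0.05 between TIS sEV and saline tumours in limma, a linear model fitted across all 12058 tested genes, where 0.514% of genes passed (62). At an unadjusted p under 0.05, 1 of the 7 passed, Snai1, against 10.3% of all genes. Of the 7, 6 had a fitted difference below 0, as did 90.5% of all genes, and 4 of the 7 lay above the median gene, with a median of 0.084 relative to it. Snai1 averaged 21.1 ± 5.27 TPM (SD, n = 3) with saline and 9.19 ± 6.43 TPM with TIS sEV, and its fitted log2 difference was -1.38 (SE 0.66, limma adjusted p = 0.476), or -0.77 relative to the median gene. Snai1 was the tested gene of the 7 whose TIS sEV libraries all lay below the saline libraries, in TPM and per size factor, which held for 13.5% of all genes on each scale. With size factors its difference was -0.75 (SE 0.31, limma adjusted p = 0.338). Snai1 was also the 1 of the 7 with an unadjusted p under 0.05 there, where 14.6% of all genes had one and 0% passed after adjustment. Without TIS sEV replicate 2 it was -0.48 relative to the median gene (adjusted p = 0.731).

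Acta2 lay on the other side. It averaged 11.1 ± 5.42 TPM (SD, n = 3) with saline and 16.1 ± 4.61 TPM with TIS sEV, which gave a fitted value of 0.55 (SE 0.66, limma adjusted p = 0.612) and of 1.17 relative to the median gene, and 97.7% of tested genes had a lower difference. It did not pass with size factors either (1.25, SE 0.61, adjusted p = 0.370), and relative to the median gene it was 0.75 without TIS sEV replicate 2. The differences relative to the median gene were -0.29 for Vim, -0.24 for Twist1, 0.30 for Zeb2, 0.22 for Tgfbi and 0.084 for S100a4, with SE 0.47 to 0.66 and adjusted p of 0.476 to 0.737. The 95% interval of the fitted difference of Vim, -1.90 to 0.091, included 0. For Vim, leaving out TIS sEV replicate 1, its highest library, gave -0.67 relative to the median gene (adjusted p = 0.0948), and leaving out TIS sEV replicate 2 or 3 gave -0.095 or -0.081. With 1 library left out Zeb2 ran from 0.026 (without saline replicate 3) to 0.48 (without TIS sEV replicate 1), and Twist1 from -0.48 (without saline replicate 3) to -0.068 (without saline replicate 1). Without saline replicate 1, the saline library lowest in both, the values of S100a4 and Tgfbi changed sign, to -0.26 and -0.13.

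Between TIS sEV and the lone Cont sEV library, whose spread was assumed to equal that of the other groups, none of the 7 passed (0.224% of all genes did, 27). The largest difference was that of S100a4, -1.43 (SE 0.66, limma adjusted p = 1), or -1.14 relative to the median gene. It was the 1 gene of the 7 with an unadjusted p under 0.05 (1.73% of all genes), and the 1 whose 3 TIS sEV libraries were all below the Cont sEV library (20.0% of all genes). Acta2 was the 1 tested gene with all 3 above it (4.59%), at 0.85 relative to the median gene, or 0.42 with TIS sEV replicate 2 left out and 1.33 with replicate 1 left out. Per size factor the groups of Acta2 overlapped, Zeb2 and Twist1 had all 3 TIS sEV libraries above Cont sEV (19.8% of all genes), and Snai1 and S100a4 had all 3 below it (25.3%). Of the 7, 5 differed by less than 0, against 74.7% of all genes. With size factors S100a4 differed by -1.07 (SE 0.57, adjusted p = 0.897), and no member reached an unadjusted p under 0.05, where 5.17% of genes did and 0.00829% passed after adjustment.

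Between Cont sEV and saline, none of the 7 passed or had an unadjusted p under 0.05 (0.207% and 2.33% of all genes in limma). S100a4 was higher with Cont sEV by 0.89 (SE 0.66, adjusted p = 1), or by 1.23 relative to the median gene, and lay above all 3 saline libraries, as did 14.1% of genes. Without saline replicate 1, the saline library low in S100a4, the latter value was 0.87, and with size factors the difference was 1.30 (SE 0.57, limma adjusted p = 0.396). Vim, Zeb2, Snai1 and Twist1 lay below all saline libraries, as did 46.4% of genes, with differences of -0.31, -0.068, -0.34 and -0.45 relative to the median gene. Per size factor Vim alone of the 7 did so, where 35.4% of genes did. Of the 7, 5 differed by less than 0, against 71.8% of all genes, and 0 passed with size factors, where 0.00829% passed after adjustment and 12.9% before it. The comparisons of TIS sEV and of Cont sEV with saline share the saline libraries, so their values are not independent of each other.

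**Figure D3:**
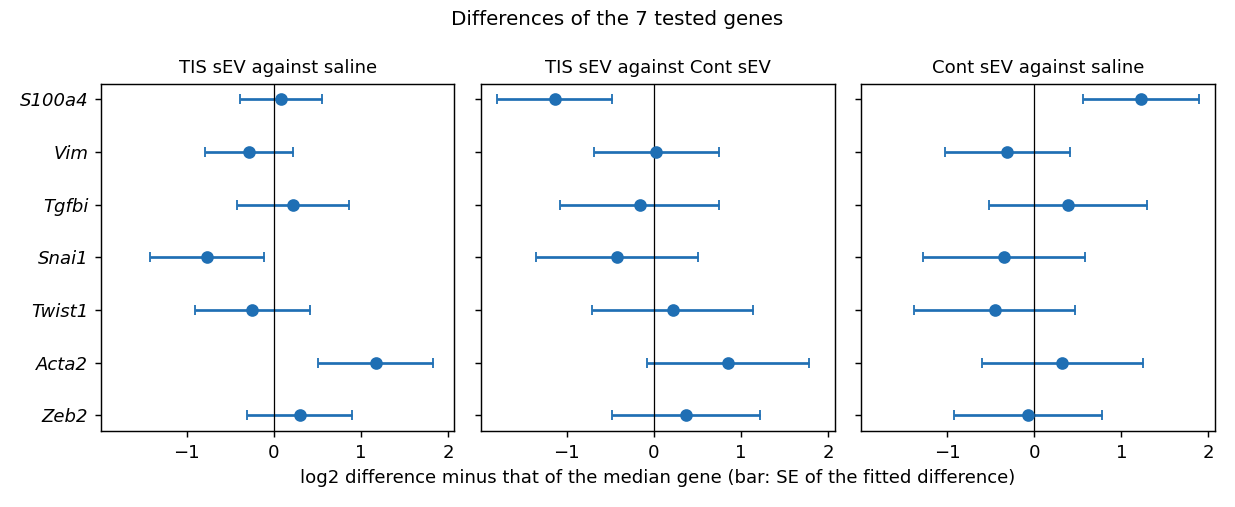
Fitted log2 difference minus that of the median gene (x axis) for the 7 tested genes (y axis) in the 3 comparisons; bars are the SE of the fitted difference. Snai1 (-0.77) and Acta2 (1.17) lie farthest from 0 against saline with TIS sEV, and S100a4 lies at -1.14 and 1.23 in the comparisons with the Cont sEV library.

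The 7 profiles did not move as a block across libraries. Profiles were compared on the scale of log2(TPM per size factor + 1), centred on the mean of the 7 libraries. The closest pair was Zeb2 and Twist1, with a mean absolute difference of 0.27, followed by Vim and Twist1 (0.34) and Snai1 and Twist1 (0.37). The median distance of Vim to 10550 named genes was 0.39, little above its distance to Twist1. Twist1, which is in all 3 pairs, had the smallest fold between libraries per size factor, 1.83. The distances of Acta2 ran from 0.57, to Zeb2, to 1.18, to S100a4, and the 5 largest distances between any pair all held Acta2. Among 10550 named protein-coding genes, the profiles nearest to S100a4 were those of Mcm5, a subunit of the replicative helicase (0.13), Ncapg, a condensin subunit (0.14), and Cdt1, a replication licensing factor (0.17), where the median gene was at 0.53. Mcm5 was at 30.0 TPM with Cont sEV, at 9.81, 28.3 and 22.9 TPM with saline and at 19.6, 6.50 and 12.3 TPM with TIS sEV. The profiles nearest to Vim were those of Fbxl2 (0.091), Abhd10 (0.098) and Zmynd19 (0.099), against a median of 0.39, and those nearest to Tgfbi were of Chmp6 (0.14), Adat3 (0.14) and Nhej1 (0.16), against 0.42. These genes are the closest of many over 7 libraries, and the likeness is a description.

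**Figure D4:**
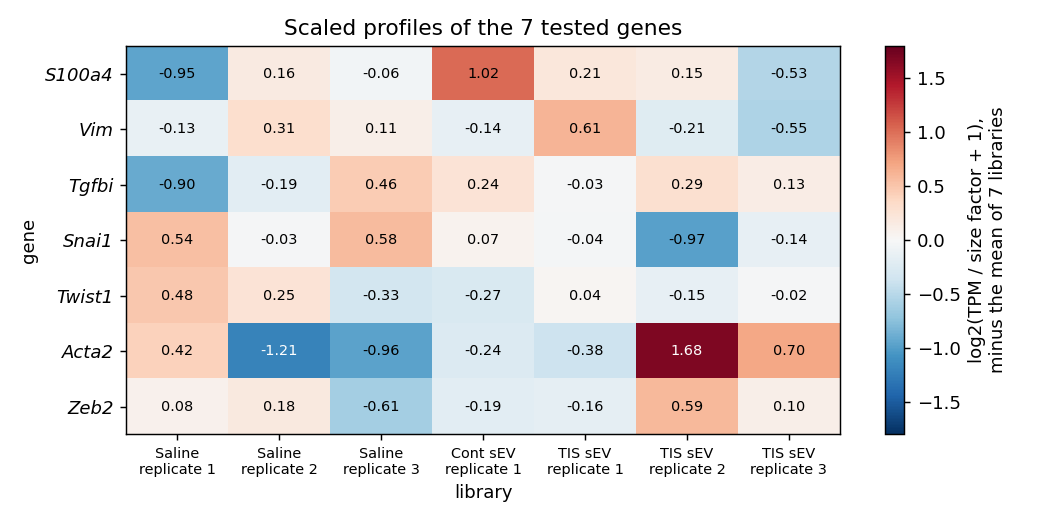
Each cell gives log2(TPM / size factor + 1) of 1 gene (rows) in 1 library (columns), minus the mean of that gene over the 7 libraries. Acta2 is at 1.68 in TIS sEV replicate 2 and -1.21 in saline replicate 2, Snai1 is at -0.97 in TIS sEV replicate 2, and S100a4 is at 1.02 with Cont sEV and -0.95 in saline replicate 1.

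Other genes of the transition were taken from lists of wider scope. Of 15 further transcription factors 13 were tested, none passed in any comparison, and 10 lay below the median gene between TIS sEV and saline, with a list median of -0.34 (0 for all genes), or -0.21 without TIS sEV replicate 2. Between TIS sEV and Cont sEV 9 of the 13 lay above it (0.18), and between Cont sEV and saline 2 (-0.41). Sox4, a factor downstream of TGF-beta, was at 21.9 ± 3.69 TPM (SD, n = 3) with saline and 11.7 ± 5.57 TPM with TIS sEV (-0.34 relative to the median gene, adjusted p = 0.483). Twist2, the paralogue of Twist1, lay above the median gene (0.99, adjusted p = 0.681), at 3.11 ± 1.47 TPM with saline and 4.60 ± 2.71 TPM with TIS sEV. Sox9 was at -0.23 and Prrx1 at 0.61. Of 21 tested mesenchymal and matrix genes (of 23) 9 lay above the median gene and 12 below it, with a median of -0.25, and 1 passed, where 0.514% of all genes did. With TIS sEV replicate 2 left out, 11 of the 21 lay above it and the median was 0.20. The gene that passed with all libraries was Fn1 (fibronectin, a matrix glycoprotein). It was lower with TIS sEV, at 27.2 to 578 TPM, than with saline, at 604 to 1158 TPM, by -2.13 on the log2 scale (limma adjusted p = 0.0467). With size factors the value relative to the median gene was -1.34, close to the -1.51 without them, but the call was lost (adjusted p = 0.388). Without TIS sEV replicate 2 both the size and the call were lost (-0.51 relative to the median gene, adjusted p = 0.520). The Cont sEV library was at 203 TPM, a difference of -2.12 from saline, or -1.79 relative to the median gene. Fn1 passed there without TIS sEV replicate 2 and not with it, though its difference was -2.12 in both fits. The median residual SD over all genes was 0.619 with that library and 0.356 without it. The single Cont sEV library adds no spread of its own. In that comparison 174 of 11988 genes passed without TIS sEV replicate 2, and 25 of 12058 with it. Cd44, a hyaluronan receptor (-1.09, adjusted p = 0.389), and Sparc, a matrix protein (0.27, adjusted p = 0.731), did not pass.

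The TGF-beta pathway lay lower than the median gene in most of its tested members in both comparisons with saline. Of 16 tested genes (of 17) none passed, and 15 lay below the median gene between TIS sEV and saline (list median -0.44), and 15 between Cont sEV and saline (-0.62), comparisons that share the saline libraries. Between TIS sEV and Cont sEV 11 of the 16 lay above the median gene and 5 below it (0.12). The Cont sEV library was below all saline libraries for 15 of the 16, and per size factor for 14, beside 46.4% and 35.4% of all genes. The ligand Tgfb1 was at 42.0 ± 9.13 TPM (SD, n = 3) with saline, 24.6 TPM with Cont sEV and 25.9 ± 14.0 TPM with TIS sEV. The receptor Tgfbr2 was at 8.49 ± 3.19, 3.66 and 3.89 ± 3.17 TPM in the same order. Between TIS sEV and saline, Tgfb1 was at -0.22 and Tgfbr2 at -0.53 relative to the median gene. The signal transducer Smad3 was at 21.8 ± 4.42, 8.68 and 6.88 ± 4.86 TPM with saline, Cont sEV and TIS sEV. Between TIS sEV and saline it differed by -1.76 (SE 0.66, limma adjusted p = 0.389), or by -1.14 relative to the median gene. Its TIS sEV libraries all lay below the saline libraries, as did those of 6 of the 16 in all, beside 13.5% of all genes. The inhibitor Smad7, itself a target of the pathway, was at 6.91 ± 1.31, 4.30 and 3.59 ± 2.45 TPM (-0.35 relative to the median gene). Without TIS sEV replicate 2, the median between TIS sEV and saline was -0.30, with 2 of 16 above the median gene and none called.

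On the epithelial side, 13 of 18 tested genes (of 20) lay below the median gene between TIS sEV and saline (list median -0.35), none passed, and 13 of 18 lay below it between TIS sEV and Cont sEV (-0.68), a comparison that shares the TIS sEV libraries. Between Cont sEV and saline 10 of the 18 lay above it (0.20). Cdh1 was at 54.4 ± 31.6 TPM (SD, n = 3) with saline and 25.6 ± 27.8 TPM with TIS sEV, -0.98 relative to the median gene (adjusted p = 0.455). Epcam (-0.62), Krt8 (-0.46) and Grhl2, an activator of epithelial genes (-0.62), did not pass either. Without TIS sEV replicate 2, Krt7 passed between TIS sEV and Cont sEV, as did 85 of 11988 genes. Its fitted difference was -2.07, or -2.21 relative to the median gene (limma adjusted p = 0.0150). Tjp1 passed in that fit between Cont sEV and saline, as did 174 genes. It was at -1.96, or -1.63 relative to the median gene (limma adjusted p = 0.0195). With all libraries 27 and 25 genes passed in these comparisons. Krt7 and Tjp1 were not among them, at fitted differences of -2.14 and -1.96. Krt7 and Tjp1 were named after their values were seen. The epithelial list summed to 1556 to 4517 TPM with saline, 2830 TPM with Cont sEV and 578 to 2517 TPM with TIS sEV. The 578 was that of TIS sEV replicate 2. Per size factor the sums with TIS sEV, 1543 to 2495, lay inside the saline span of 1519 to 3054, with 2837 for Cont sEV. The groups of the 10 macrophage markers overlapped, at 641 to 2078 TPM with saline, 1222 TPM with Cont sEV and 614 to 1590 TPM with TIS sEV, with all 10 at 1 TPM or more in each library. Between TIS sEV and saline 5 of these 10 lay above the median gene and 5 below it (list median 0.11). Lyz2 of that list passed there without TIS sEV replicate 2 (fitted difference -1.36, limma adjusted p = 0.0101), as did 90 of 11988 genes. With that library Lyz2 did not pass (fitted difference -1.28, limma adjusted p = 0.476). Relative to the median gene Lyz2 was at -1.17 without that library and at -0.67 with it. The 8 endothelial markers summed to 31.7 to 59.0, 37.2 and 7.04 to 76.5 TPM in the same order, with 1 of them at 0 in TIS sEV replicate 2. Of the skeletal muscle markers, Acta1, an actin of near-identical sequence to Acta2, reached 21.9 TPM in saline replicate 3 and was at 0.0424 to 1.63 TPM in the other 6 libraries. The part of leukocytes and vessels in the values of Vim, S100a4 and Zeb2 was not tested.

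**Figure D5:**
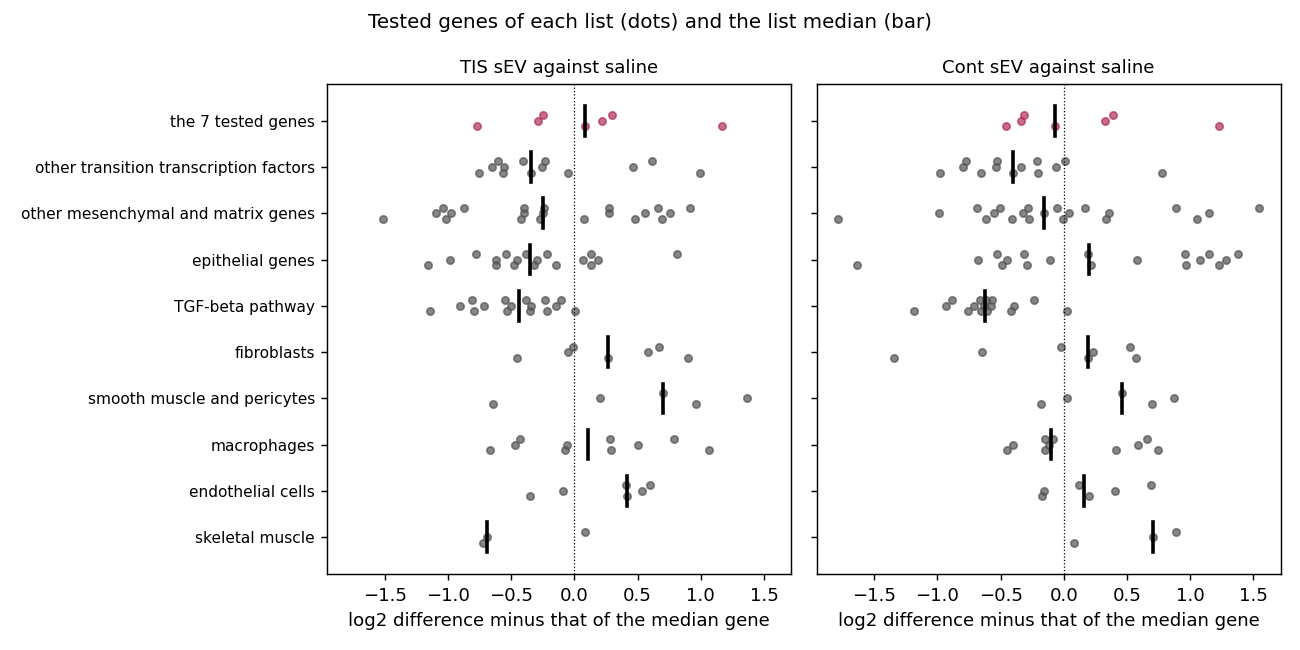
Log2 difference minus that of the median gene (x axis) for the tested genes of each list (rows), 1 dot per gene, with a bar at the list median, for TIS sEV (left) and Cont sEV (right) against saline. The 7 tested genes scatter around 0 with medians of 0.084 and -0.068, and all but 1 of the TGF-beta pathway dots lie left of 0 on each side.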

How the data were processed

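Per the labels, bulk RNA of tumours was sequenced in 7 libraries. The authors deposited 1 table of TPM values for 55487 entries. The submitters' processing notes list Salmon (version 1.4.0) on build GRCm38.p6, beside FastQC (0.11.9), Trim Galore (0.6.6) and DESeq2 (1.28.0). Neither the annotation nor the summing to genes nor the strand setting is given there. Each column sums to 1000000, which leaves the depth unknown, so values carry no counting interval, and much RNA of a single class lowers the TPM of all other genes in a library. The column names CE and NcE were read as Cont sEV and TIS sEV, a reading that the labels do not spell out, and each vesicle comparison rests on it.

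Symbols and coordinates came from GENCODE M21 (55141 entries with a symbol). limma 3.58.1 in R 4.3.3 was fitted to log2(TPM + 1) of the 12058 genes that reached 1 TPM in 3 or more libraries, with 1 mean per group, intensity trend, two-sided tests and Benjamini-Hochberg adjustment over all tested genes. Log2 values with a pseudocount of 1 understate low genes. As limma estimated an infinite prior in the main fit, a gene's SE there comes from the trend at its level and not from its own 7 values. The prior was finite with size factors (3.03 degrees of freedom), no filter, rescaling and quantile normalization. In those fits a gene's own values also enter its SE. The p-value tests the fitted difference against 0, also beside a value relative to the median gene. The fit was tested on simulated data. Size factors are medians of ratios over genes above 0 in all libraries. Alternatives were the pseudocount, filter, scaling, trend, replicate block and leaving out each library. The text names the 10 genes, up to 4 genes of each list (1 further gene that this rule names is not reported here), list genes that passed, and the 3 nearest profiles of the 3 most abundant genes. Values beyond these (Cnn1, Actg2, Krt7, Tjp1 and ratios between genes) and the TATAAA search were chosen after the values were seen. The members and lists were chosen with earlier results of these data known.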

Additional observations from a re-analysis of the deposited data

How the results depend on the processing

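None of the 7 tested genes passed in the 3 comparisons under any of 15 alternatives, 1 of which (size factors together with leaving out TIS sEV replicate 2) was chosen after seeing the data. Zeb1, Snai2 and Cdh2 were tested with no filter alone, where none of the 10 passed. Of 315 values of single genes under alternatives, 302 kept their direction relative to the median gene and their side of the threshold, and 13 changed sign, none of them past the threshold. For TIS sEV against saline, S100a4 was at -0.41 with no filter, at -0.30 with quantile normalization and from -0.26 to 0.34 with 1 library left out. Tgfbi was at -0.27 with no filter and from -0.13 to 0.57 with 1 library left out, and Zeb2 was at -0.19 with no filter. For TIS sEV against Cont sEV, Vim was at -0.25 with no filter and from -0.36 to 0.23 with 1 library left out, and Twist1 was at -0.065 with no filter. For Cont sEV against saline, Zeb2 was at 0.058 with quantile normalization and from -0.34 to 0.092 with 1 library left out.

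The count over all genes moved far more. For TIS sEV against saline it was 0 with no filter, size factors, rescaling to nuclear protein-coding genes, quantile normalization and size factors without TIS sEV replicate 2, 39 with no intensity trend, 14 with the replicate block and 6 to 332 with 1 library left out. For TIS sEV against Cont sEV it was 246 with no filter, 1 with size factors, 2 with rescaling, 1 with quantile normalization, 12 with no trend, 5 with the replicate block, 1 with size factors without TIS sEV replicate 2, and 7 to 85 with 1 library left out. For Cont sEV against saline it was 233, 1, 2, 2, 16, 9 and 1 in the same order of settings, and 6 to 174 with 1 library left out. The cause was not tested. The deviations of same-numbered saline and TIS sEV libraries correlated at -0.382, -0.00849 and 0.0797, and those of differently numbered ones at -0.336 to 0.368. With 3 libraries per group these values cannot tell whether same-numbered libraries share an origin. The labels give only the shared number, so the block is no paired analysis. Depth is unknown, which limits Zeb1, Snai2 and Cdh2 most.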
